A study of Mus musculus with 20 samples.

Results

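How far the effect of losing Cpt2 in the fasted mouse liver differed when Cpt1a and Cpt1b were also lost was examined in 16 of the 20 liver RNA libraries of the study. These 16 form a 2 by 2 layout of Cpt1 loss and Cpt2 loss with 4 libraries in each cell, and each was placed by its genotype label. The labels name Control as carrying floxed Cpt1a, Cpt1b and Cpt2 alleles, with no knockout named. Cpt1DKO had lost Cpt1a and Cpt1b, Cpt2KO had lost Cpt2, and TKO had lost all of these, each described in the labels as specific to the liver. Control is the only control group of the study, so Cpt1DKO and Cpt2KO have no separate floxed control. Any other difference between the groups of mice cannot be told apart from the named losses. All 16 livers came from mice fasted for 24 h, so no fed liver stands beside them. The labels give no strain, age, sex or Cre driver, and whether each library stands for a separate animal is not stated. The p-values below therefore measure library-to-library spread, part of which may be technical. The remaining 4 libraries, which had lost Cpt2 together with Ppara, lie outside the layout and were used only in an alternative fit.

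Long-chain fatty acids enter mitochondria through the carnitine shuttle. CPT1 at the outer membrane joins them to carnitine, a translocase carries the acylcarnitine across the inner membrane, and CPT2 on the inner membrane turns it back into acyl-CoA for beta-oxidation. CPT1A is the liver form of CPT1 and CPT1B the muscle form. The layout thus holds livers blocked before acylcarnitine is made, after it, and at both steps. PPARalpha is a nuclear receptor activated by fatty acids that switches on genes of fatty acid oxidation, ketogenesis and lipid handling in the fasted liver.

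The contrast was (TKO minus Cpt1DKO) minus (Cpt2KO minus Control) on the log2 scale, fitted for every gene with edgeR's quasi-likelihood test. An estimate of 0 says that the fold changes of the separate losses multiplied in TKO. A negative estimate says that TKO lay below that product, and a positive one that it lay above it. Adjusted p-values are from that test with Benjamini-Hochberg adjustment over all 15061 genes tested, and a gene is called at an adjusted p under 0.05. Levels are CPM, a count divided by the TMM-scaled size of its library, given for libraries 1 to 4 of a group in that order or as mean ± SD (n = 4).

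Total counts ran from 14129595 to 20273303 over the 16 libraries. Every pair of libraries within a group differed by more than sampling noise (chi-square per degree of freedom 14.5 to 94.1). Cpt2KO replicate 3 had a female pattern, with 939 CPM of Xist and 2 Y-linked counts, and the other 15 had a male pattern. The first principal component held 39.4% of the variance. Control libraries lay between -66.7 and -62.7 on it and Cpt2KO libraries between 32.9 and 64.2, with TKO between 25 and 42.3. Cpt1DKO spread widely along it, from 6.5 in replicate 2 to -34.1 in replicate 3.

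Levels of the targeted genes check the labels. Cpt1a (ENSMUSG00000024900, chromosome 19, 3372334 to 3435733, plus strand, GRCm39) read 887, 990, 982 and 1071 CPM in Control, 148, 140.4, 164 and 140.5 in Cpt1DKO, 1385, 1219, 1550 and 1155 in Cpt2KO, and 114, 133, 138 and 137 in TKO. Both groups that lack CPT1 were low, and they did not overlap Control or Cpt2KO. Cpt2 (ENSMUSG00000028607, chromosome 4, 107761178 to 107780807, minus strand) read 199, 253, 239.8 and 253 CPM in Control, 274, 141, 282 and 287 in Cpt1DKO, 111, 158, 109 and 127 in Cpt2KO, and 110.1, 88.2, 89.5 and 106 in TKO. It was lower in Cpt2KO and TKO than in Control in all 8 libraries, and Cpt1DKO replicate 2 was as low as Cpt2KO although its label names no loss of Cpt2. Without that library 362 genes were called in the interaction in place of 600. Cpt1b (ENSMUSG00000078937, chromosome 15, 89300608 to 89310066, minus strand) was low, with 0.514 ± 0.203 CPM in Control, 0.843 ± 0.213 in Cpt1DKO, 3.75 ± 1.66 in Cpt2KO and 2.67 ± 0.302 in TKO. Neither Cpt1DKO against Control (log2 0.72, adjusted p = 0.321) nor TKO against Cpt2KO (log2 -0.49, adjusted p = 0.584) was called. The labelled loss of Cpt1b therefore does not show in these counts, and they do not check the labels. A count covers a gene's whole length, and what remains in a knockout can come from undeleted exons or from other cells. Of the targeted genes, none was called in the interaction, with log2 -0.61, SE 0.17, adjusted p = 0.0505 for Cpt1a, log2 -0.42, SE 0.26, adjusted p = 0.398 for Cpt2 and log2 -1.21, SE 0.53, adjusted p = 0.205 for Cpt1b. Cpt1a lay at the threshold, and DESeq2 (adjusted p = 0.00593), limma-voom (0.0403), scaling by library totals (0.0317) and the fit without Cpt2KO replicate 4 called it.

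The effect of Cpt2 loss differed with Cpt1 status at 600 genes, 3.98% of those tested. Of these, 308 genes (2.05%) were called lower than the product of the separate effects, among them genes of lipid droplets and PPARalpha targets. The other 292 (1.94%) were called higher, among them cytochromes P450, secreted liver proteins and glycogen genes. At an unadjusted p under 0.05 there were 2992 genes, and the median estimate over all tested genes was -0.02. When libraries were scaled by their totals alone the split was 231 higher and 371 lower, and the median of all genes moved to -0.07. Limma-voom called 580 genes, and DESeq2 called 1148, of which 597 were among the 600.

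The count depended on single libraries. It was 363, 340, 344 and 332 without Control replicates 1, 2, 3 and 4 in turn. It was 261 without Cpt1DKO replicate 1, 345 without Cpt2KO replicate 2 and 311 without TKO replicate 3, and it reached 904 without Cpt2KO replicate 1. Without Cpt2KO replicate 3, the library with the female pattern, 653 genes were called, of which 485 were among the 600. Cpt1DKO replicate 3, the library of that group nearest to Control on the first component, left 720 calls when omitted.

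**Figure D1:**
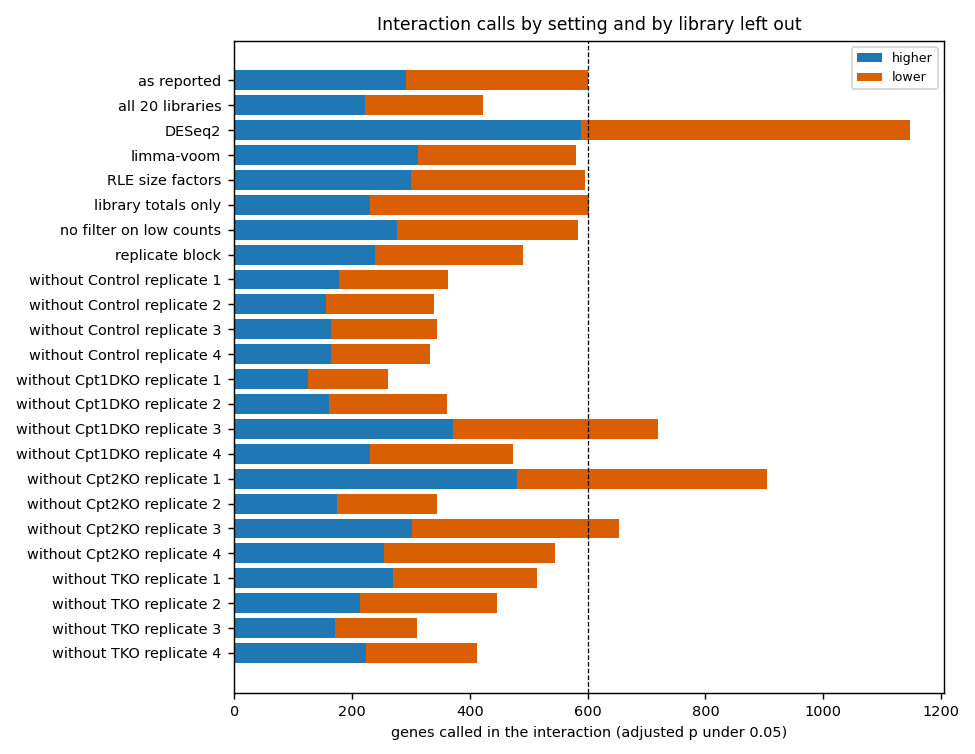
Number of genes called in the interaction (horizontal axis, genes at adjusted p under 0.05), higher in blue and lower in orange, for the fit as reported, 7 other settings and the 16 fits that leave out a library each; the dashed line marks the 600 genes as reported. Bars run from 261 without Cpt1DKO replicate 1 to 1148 with DESeq2, and 904 is reached without Cpt2KO replicate 1.

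The 4 simple effects that make up the layout share libraries with each other and with the interaction, and are given side by side. Loss of Cpt2 with Cpt1 present, which is Cpt2KO against Control, called 5306 genes (35.2%), 2725 higher (18.1%) and 2581 lower (17.1%). Loss of Cpt2 without Cpt1, which is TKO against Cpt1DKO, called 959 (6.37%), 477 higher (3.17%) and 482 lower (3.2%). Loss of Cpt1 with Cpt2 present, Cpt1DKO against Control, called 1112 (7.38%), 516 higher (3.43%) and 596 lower (3.96%). Loss of Cpt1 where Cpt2 was already lost, TKO against Cpt2KO, called 10 genes (0.0664%). At an unadjusted p under 0.05 that last contrast held 1702 genes, and DESeq2 called 79. Its 3 lower calls (0.0199%) were Cpt1a, Ide and 4931408D14Rik, and its 7 higher calls (0.0465%) were Tsku, Hivep2, Nalf2, Gm44507, 4732416N19Rik and the mitochondrial transfer RNA genes mt-Tg and mt-Tr, named here because there were so few. Mitochondrial genes held 5.63 to 8.02% of counts in TKO against 4.58 to 6.01% in Cpt2KO, and the part of this share in the calls of mt-Tg and mt-Tr was not tested. Leaving out a library gave 387 calls (without Cpt1DKO replicate 1) to 1496 (without Cpt1DKO replicate 3) for Cpt1 loss with Cpt2 present. For Cpt2 loss without Cpt1 it gave 424 (without TKO replicate 1) to 1206 (without Cpt1DKO replicate 2), and for TKO against Cpt2KO 4 (without Cpt2KO replicate 2) to 15 (without Cpt2KO replicate 1).

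**Figure D2:**
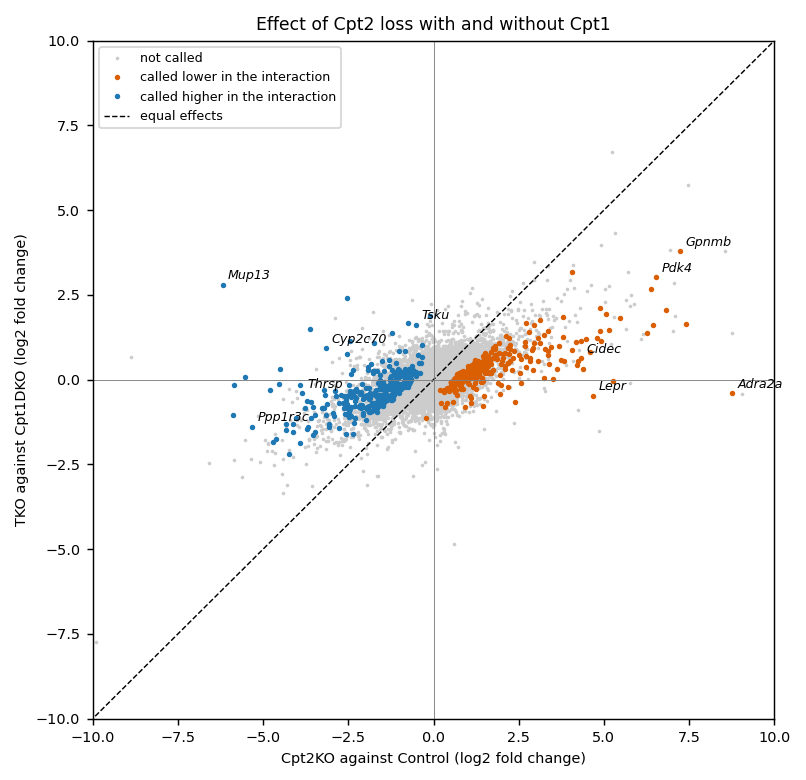
Log2 fold change of Cpt2KO against Control (horizontal axis) and of TKO against Cpt1DKO (vertical axis) for each tested gene, with genes called lower in the interaction in orange, called higher in blue and not called in grey; the dashed line marks equal effects. Called genes lie off that line because the interaction is the distance from it, and most lie nearer to 0 on the vertical than on the horizontal axis.

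In most called genes the 3 mutant groups lay on one side of Control. Among the 308 genes called lower, both Cpt1DKO and Cpt2KO had mean log2 levels above Control in 307, Control was the lowest group in 301, and Cpt2KO was the highest in 265. TKO lay between Cpt1DKO and Cpt2KO in 213 of them (69.2%), was the highest in 20 and the lowest in 7. Among the 292 called higher, both were below Control in 288, Control was the highest group in 282, and Cpt2KO was the lowest in 255. TKO lay between the others in 208 (71.2%), was the lowest in 17 and the highest in 9. Over all 15061 tested genes TKO lay between them in 7166 (47.6%). There Cpt1DKO and Cpt2KO were both above Control in 5839 (38.8%) and both below it in 5624 (37.3%). Control was the lowest group in 34.9% and the highest in 34.1%, and Cpt2KO was the highest in 4415 genes and the lowest in 4299. The contrast adds Control and TKO and subtracts the other groups, all with equal weight. A gene with an extreme Control, or equally an extreme TKO, is therefore more likely to be called. These counts are a description that does not stand apart from the call.

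PPARalpha targets held the most genes called lower of any list. Of 50 tested members, 21 were called lower (42%), none higher, and the median estimate was -1.06, with 48 of 50 below 0, against 3.98% called and a median of -0.02 over all genes. Over all genes 2.05% were called lower and 1.94% higher, and the list counts below are to be read beside these shares. The list's median for Cpt2 loss was 1.2 with Cpt1 present and 0.36 without it. Its median for Cpt1 loss was 0.72 with Cpt2 present and -0.37 without it. The number called lower ran from 15 without Control replicate 1 to 25 without Cpt2KO replicate 4.

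Acot1 (ENSMUSG00000072949, chromosome 12, 84056264 to 84065145, plus strand), a cytosolic thioesterase that frees fatty acids from acyl-CoA, read 117, 136, 154 and 147 CPM in Control, 577, 417, 490.4 and 413 in Cpt1DKO, 1184, 1915, 1620 and 1007 in Cpt2KO, and 698, 779, 865 and 778 in TKO. The groups did not overlap, and TKO stood above Cpt1DKO and below Cpt2KO (log2 -2.65, SE 0.25, adjusted p = 1.2e-05). Had the separate losses multiplied, TKO would have stood at 4734 CPM, against a geometric mean of 778 measured. Acot2, the mitochondrial enzyme of the same family, had the same order of groups with no overlap, with 11.6 ± 3.46 CPM in Control, 53 ± 5.07 in Cpt1DKO, 342 ± 138 in Cpt2KO and 143 ± 13.8 in TKO (log2 -3.44, SE 0.34, adjusted p = 5.1e-05). Acot1 and Acot2 are near-identical neighbours, and how the counting split their reads is not known.

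Ehhadh (ENSMUSG00000022853, chromosome 16, 21580037 to 21606557, minus strand), the bifunctional enzyme of peroxisomal beta-oxidation, read 1707, 2255, 981 and 1647 CPM in Control, 5798, 3549, 4491 and 5484 in Cpt1DKO, 12600, 11170, 9463 and 10020 in Cpt2KO, and 7103, 9332, 7184 and 7723 in TKO. These groups did not overlap either, in the order Control, Cpt1DKO, TKO and Cpt2KO (log2 -2.02, SE 0.30, adjusted p = 0.00127). Pdk4 (ENSMUSG00000019577, chromosome 6, 5483351 to 5496309, minus strand), a kinase that shuts off pyruvate dehydrogenase when fat is burned, read 6.83, 5.76, 12.7 and 6.84 CPM in Control, 85.8, 114, 28.9 and 34.5 in Cpt1DKO, 809, 697, 929 and 516 in Cpt2KO, and 258, 918, 556 and 411 in TKO. TKO and Cpt2KO overlapped and both lay above Cpt1DKO, which lay above Control (log2 -3.5, SE 0.67, adjusted p = 0.0144). Fgf21 (ENSMUSG00000030827, chromosome 7, 45263310 to 45264914, minus strand), a hormone that the fasted liver secretes, read 2.5, 3.39, 5.7 and 1.45 CPM in Control, 36.3, 37.5, 12.2 and 27.7 in Cpt1DKO, 49.7, 70.5, 62.9 and 105 in Cpt2KO, and 121, 25.6, 40 and 72.3 in TKO. TKO overlapped both Cpt1DKO and Cpt2KO, and Cpt1DKO replicate 3 lay below every TKO library (log2 -3.29, SE 0.74, adjusted p = 0.0296), and the call was lost in 8 of the 16 fits that left out a library, with adjusted p up to 0.0665.

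Cyp4a14, a microsomal omega-hydroxylase of fatty acids, had a smaller estimate, with 7809 ± 678 CPM in Control, 13960 ± 1939 in Cpt1DKO, 13760 ± 1430 in Cpt2KO and 12050 ± 2314 in TKO (log2 -1.03, SE 0.22, adjusted p = 0.0159). Its 3 mutant groups overlapped and lay above Control. With all 20 libraries in the fit its adjusted p was 0.0523, and it belongs to a family of near-identical genes. Pex11a, which divides peroxisomes, averaged 181 ± 39.3, 346 ± 31.3, 830.4 ± 80.9 and 662 ± 29.1 CPM in Control, Cpt1DKO, Cpt2KO and TKO (log2 -1.26, SE 0.20, adjusted p = 0.00174). Slc22a5, the plasma membrane carnitine carrier, averaged 80.3 ± 9.83, 132 ± 10.4, 250.1 ± 40.3 and 194 ± 37.2 CPM in the same order (log2 -1.08, SE 0.21, adjusted p = 0.00781).

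Genes of lipid droplets and triglyceride storage gave 7 calls lower (29.2%, against 2.05% of all genes) and none higher among 24 tested. The list median was -0.65, with 19 members below 0. Cidec (ENSMUSG00000030278, chromosome 6, 113401595 to 113412721, minus strand), a droplet protein that makes droplets fuse and grow, read 18.9, 23.7, 21.2 and 28.3 CPM in Control, 314, 352, 202 and 287 in Cpt1DKO, 324, 524, 513 and 480 in Cpt2KO, and 411, 516, 446 and 413 in TKO. All mutant libraries lay above all Control libraries, and TKO overlapped Cpt2KO but not Cpt1DKO. Its interaction was log2 -3.69, SE 0.26, adjusted p = 2.1e-07, where multiplied losses would have given 5616 CPM in TKO against 445 measured. The difference of TKO from Cpt2KO was not called (log2 -0.04, SE 0.18, adjusted p = 0.952).

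Plin2 (ENSMUSG00000028494, chromosome 4, 86566623 to 86588297, minus strand), the main droplet coat protein of the liver, read 367, 457, 367 and 530.3 CPM in Control, 1746, 1359, 994 and 1355 in Cpt1DKO, 2864, 4760, 3223 and 4259 in Cpt2KO, and 3470, 3164, 2497 and 2479 in TKO. Cpt1DKO lay above Control and below TKO without overlap, and TKO overlapped Cpt2KO (log2 -2.04, SE 0.28, adjusted p = 8.8e-04). Pnpla2, the adipose triglyceride lipase, averaged 188 ± 8.19, 401 ± 50.4, 602 ± 138 and 457 ± 86.4 CPM in Control, Cpt1DKO, Cpt2KO and TKO (log2 -1.49, SE 0.22, adjusted p = 0.00132). Hsd17b13, a droplet-bound enzyme, averaged 436 ± 25.6, 845 ± 199, 1327 ± 237 and 975 ± 171 CPM (log2 -1.4, SE 0.24, adjusted p = 0.00409). Both were called in every fit that left out a library.

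Lists of fatty acid oxidation also leaned lower. Some genes stand in several lists and are counted in each. Cidec and Plin2 are in the PPARalpha and lipid droplet lists, and Acot2 is in those of PPARalpha and mitochondrial oxidation. In mitochondrial oxidation 8 of 24 tested members were called lower (33.3%) and none higher (5 called without Cpt1DKO replicate 1). The median was -0.49, with 23 members below 0. Crat, which moves short acyl groups between carnitine and CoA, averaged 113 ± 6.31, 191 ± 22.9, 347 ± 70.2 and 224 ± 35.6 CPM in Control, Cpt1DKO, Cpt2KO and TKO (log2 -1.39, SE 0.21, adjusted p = 0.00132). Hadhb, a subunit of the trifunctional protein of beta-oxidation, averaged 290.4 ± 22.3, 435 ± 40.4, 522 ± 69.7 and 414 ± 22.3 CPM (log2 -0.92, SE 0.17, adjusted p = 0.00535). In peroxisomal oxidation and biogenesis 8 of 31 were called lower and 1 higher (29% called), with a median of -0.37 (4 lower without Control replicate 1). Acaa1b, a peroxisomal thiolase, averaged 1617 ± 346, 2663 ± 789, 7525 ± 1373 and 4484 ± 282 CPM (log2 -1.47, SE 0.29, adjusted p = 0.00895, 0.109 with all 20 libraries). The exception was Pecr, a peroxisomal reductase used in lengthening fatty acids, which was called higher at 192 ± 11.7, 85.8 ± 29.4, 34.2 ± 2.7 and 40.4 ± 8.67 CPM (log2 1.4, SE 0.27, adjusted p = 0.00881).

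Slc16a1, a carrier of ketone bodies and lactate, averaged 40.6 ± 5.04, 65.4 ± 7.28, 94.7 ± 17.1 and 73.5 ± 12.4 CPM in Control, Cpt1DKO, Cpt2KO and TKO (log2 -1.05, SE 0.21, adjusted p = 0.0101). Omega oxidation had 2 lower and 1 higher of 14, with a median of -0.03 (1 lower without Control replicate 1, 4 without TKO replicate 2), a median whose sign changed with the libraries used. The gene called higher there was Cyp4f14, a fatty acid and leukotriene hydroxylase, at 90 ± 17, 29.3 ± 8.34, 18.7 ± 3.94 and 24.1 ± 11.9 CPM (log2 1.99, SE 0.41, adjusted p = 0.016). Aldh3a2, which oxidises fatty aldehydes, was called lower (log2 -1.07, SE 0.25, adjusted p = 0.0242) and lost its call when Control replicate 1, Control replicate 2 or TKO replicate 3 was omitted, and with all 20 libraries (0.0897).

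**Figure D3:**
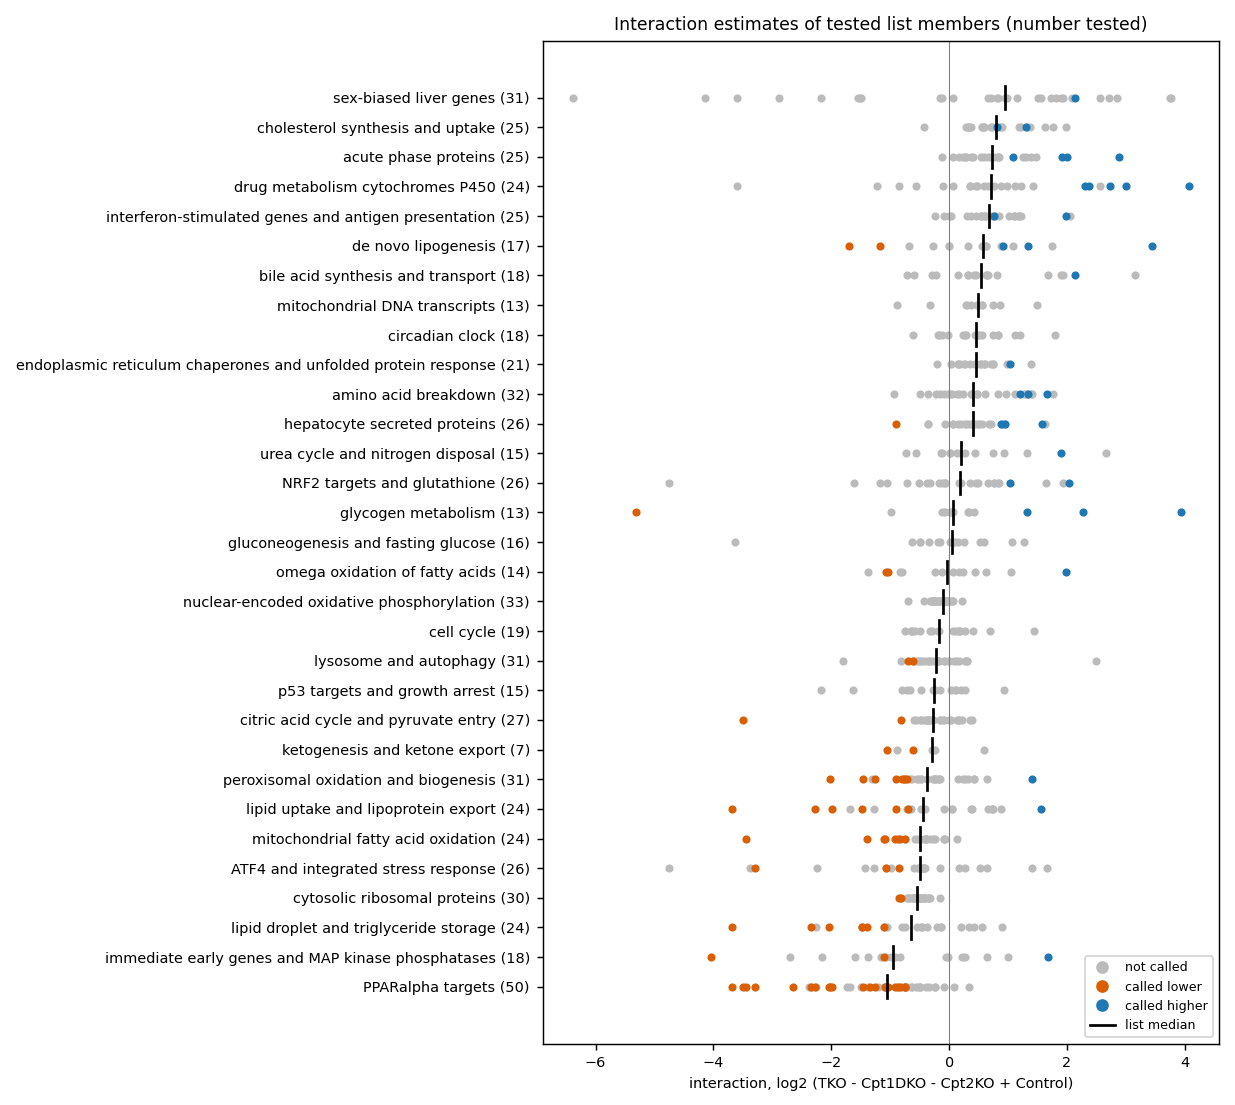
Interaction estimate (horizontal axis, log2) of each tested member of 31 pathway lists, with the number tested in brackets, members called lower in orange, called higher in blue and not called in grey, and a black bar at the list median. PPARalpha targets have the lowest median, -1.06, and their 21 calls all lie below 0.

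Lipid uptake and lipoprotein export had 6 calls lower and 1 higher among 24, with a median of -0.44 (2 lower without Control replicate 2). Apoa4 (ENSMUSG00000032080, chromosome 9, 46151994 to 46154757, plus strand), an apolipoprotein of triglyceride-rich particles, read 822, 874, 376 and 412 CPM in Control, 6306, 7197, 4080 and 4822 in Cpt1DKO, 8630, 16550, 7547 and 14490 in Cpt2KO, and 11630, 5871, 6312 and 9153 in TKO. Control was lowest, TKO overlapped both other mutant groups, and Cpt1DKO and Cpt2KO did not overlap (log2 -3.69, SE 0.48, adjusted p = 8.9e-04). Multiplied losses would have given 105800 CPM in TKO against 7925 measured. Apoa4 overlaps Gm47528 on the other strand, and the strand setting of the counting is not known. Fabp2, an intracellular fatty acid carrier, averaged 87.2 ± 8.93, 162 ± 16.9, 293 ± 134 and 196 ± 27.3 CPM in Control, Cpt1DKO, Cpt2KO and TKO (log2 -1.48, SE 0.31, adjusted p = 0.015, 0.0533 with all 20 libraries). Fabp4, the adipocyte and macrophage carrier, averaged 7.04 ± 2.06, 26 ± 4.5, 50.5 ± 28.3 and 38.4 ± 13.2 CPM (log2 -2.28, SE 0.52, adjusted p = 0.0286) and lost its call in 7 of 16 fits that left out a library and with no filter on low counts (0.0615). Mttp, which loads lipid onto apolipoprotein B, averaged 359.8 ± 25.6, 516 ± 50.1, 603 ± 69.7 and 534 ± 68.8 CPM (log2 -0.7, SE 0.18, adjusted p = 0.0334) and lost it in 10.

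De novo lipogenesis split, with 3 of 17 called higher, 2 lower and a median of 0.57. Thrsp (ENSMUSG00000035686, chromosome 7, 97062145 to 97066937, minus strand), an activator of fatty acid synthesis, read 44.5, 33.6, 23.4 and 43.3 CPM in Control, 4.8, 3.96, 7.78 and 4.92 in Cpt1DKO, 1.61, 2.24, 3.07 and 3.03 in Cpt2KO, and 3.9, 7.26, 2.49 and 2.74 in TKO. Every mutant library lay below every Control library, and TKO overlapped both other mutant groups (log2 3.45, SE 0.47, adjusted p = 0.00119). Acly, which makes cytosolic acetyl-CoA, averaged 132 ± 19, 67.3 ± 8.03, 56.9 ± 8.03 and 54.6 ± 2.62 CPM in Control, Cpt1DKO, Cpt2KO and TKO (log2 0.91, SE 0.18, adjusted p = 0.0094). The 2 lower calls were Acacb, the mitochondrial acetyl-CoA carboxylase whose product inhibits CPT1, at 54.3 ± 6.88, 143 ± 27.9, 256 ± 41.8 and 207 ± 54.8 CPM (log2 -1.7, SE 0.25, adjusted p = 0.00127), and Elovl5, an elongase of polyunsaturated fatty acids, at 435 ± 69, 906 ± 109, 889.8 ± 128 and 820 ± 142 CPM (log2 -1.18, SE 0.22, adjusted p = 0.00737, 0.0606 with all 20 libraries). Unlike Thrsp and Acly, both stood higher in the mutant groups than in Control.

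Cholesterol synthesis and uptake had 24 of 25 members above 0 and a median of 0.79, with 2 called higher and none lower. These were Sc5d, at 257 ± 16.7, 144 ± 39.2, 108 ± 9.84 and 106 ± 11.5 CPM in Control, Cpt1DKO, Cpt2KO and TKO (log2 0.81, SE 0.22, adjusted p = 0.0447), and Nsdhl, at 16.5 ± 6.47, 7.87 ± 1.25, 7.32 ± 1.85 and 8.65 ± 1.81 CPM (log2 1.3, SE 0.36, adjusted p = 0.0485), enzymes of the late steps of the pathway. Sc5d lost its call in 12 and Nsdhl in 11 of the 16 fits that left out a library, and without Control replicate 3 no member was called. Both also lost it with all 20 libraries (0.0842 and 0.0524) and with scaling by library totals (0.0549 and 0.0509), and Nsdhl with limma-voom (0.0841).

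Among glycogen genes 3 of 13 were called higher and 1 lower (30.8% called, against 3.98% of all genes), with a median of 0.06. Pygl (ENSMUSG00000021069, chromosome 12, 70237585 to 70278262, minus strand), the liver glycogen phosphorylase, read 248, 311, 286 and 289 CPM in Control, 136, 104, 142 and 153 in Cpt1DKO, 86.2, 64.3, 76.3 and 80.4 in Cpt2KO, and 95.9, 104, 78.2 and 85.5 in TKO. Control was highest and the mutant groups were lower, with TKO overlapping Cpt2KO and meeting the low end of Cpt1DKO (log2 1.33, SE 0.19, adjusted p = 0.00106). The other calls were subunits that bring protein phosphatase 1 to glycogen. Ppp1r3b averaged 195 ± 91.2, 61.1 ± 13.3, 15.3 ± 6.27 and 23 ± 6.58 CPM in Control, Cpt1DKO, Cpt2KO and TKO (log2 2.27, SE 0.48, adjusted p = 0.0205). Ppp1r3c read 47.8, 54.1, 114 and 32.6 CPM in Control, 3.33, 2.51, 16.6 and 15.6 in Cpt1DKO, 2.25, 0.458, 0.988 and 2.58 in Cpt2KO, and 3.66, 3.08, 3.33 and 4.34 in TKO (log2 3.94, SE 0.93, adjusted p = 0.037), so TKO lay above Cpt2KO without overlap. Ppp1r3g went the other way, with 2.04 ± 1.42 CPM in Control, 36.2 ± 40.3 in Cpt1DKO, 79.1 ± 65.3 in Cpt2KO and 35 ± 25.7 in TKO (log2 -5.32, SE 1.28, adjusted p = 0.041), with wide spread within the mutant groups. Ppp1r3c lost its call in 10 and Ppp1r3g in 11 of the 16 fits that left out a library, and Ppp1r3g with limma-voom (0.127). With no filter on low counts both did (0.0624 and 0.0634). Ppp1r3g overlaps Gm30127 on the other strand.

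Cytochromes P450 of drug metabolism gave 5 calls higher (20.8%, against 1.94% of all genes) and none lower among 24 tested, with a median of 0.71. Cyp1a2 (ENSMUSG00000032310, chromosome 9, 57584220 to 57590986, minus strand), which oxidises caffeine and many drugs, read 249, 283, 293 and 335 CPM in Control, 98.6, 74, 113 and 120.5 in Cpt1DKO, 115, 48.5, 68.1 and 71.2 in Cpt2KO, and 131, 136, 146 and 113 in TKO. Control was highest, Cpt1DKO and Cpt2KO overlapped, and TKO replicates 1 to 3 lay above both (log2 2.31, SE 0.29, adjusted p = 4.4e-04). Multiplied losses would have given 25 CPM in TKO against 131 measured. Cyp2c70, which makes the muricholic acids of mouse bile, read 36.1, 39.8, 52.6 and 27.1 CPM in Control, 5.57, 6.09, 4.68 and 4.44 in Cpt1DKO, 3.22, 1.83, 5.98 and 6.56 in Cpt2KO, and 4.59, 24, 6.75 and 4.47 in TKO (log2 4.06, SE 0.75, adjusted p = 0.0116). TKO replicate 2 stood apart at 24.0 CPM, and the other TKO libraries lay within or near the range of Cpt1DKO and Cpt2KO. Cyp2c50 averaged 677 ± 156, 196 ± 96.6, 58.1 ± 27.4 and 112 ± 24.9 CPM in Control, Cpt1DKO, Cpt2KO and TKO (log2 2.73, SE 0.55, adjusted p = 0.0167), and Cyp2c54 347 ± 85.5, 108 ± 64.9, 17.3 ± 9.96 and 43.2 ± 10.2 CPM (log2 3.0, SE 0.62, adjusted p = 0.0193). Cyp2f2 averaged 742 ± 51.5, 366 ± 109, 80.3 ± 55.2 and 205 ± 97.7 CPM (log2 2.37, SE 0.62, adjusted p = 0.0491) and lost its call in 14 of 16 fits that left out a library and with no filter on low counts (0.109). Members of the Cyp2c family share sequence, and Cyp2f2 overlaps Gm15883 on the other strand.

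Several of these genes are sex-biased in mouse liver, and Cpt2KO replicate 3 had the female pattern. Without that library the P450 list still had 5 calls higher, with a median of 0.91, and Cyp2c70, Cyp2c54 and Cyp2c50 stood at 4.25, 3.39 and 3.02 (log2), while Cyp2f2 had an adjusted p of 0.0647. In the list of sex-biased liver genes 1 of 31 was called higher (3.23%, against 1.94% of all genes) and none lower, with a median of 0.95. Without that library the median was 1.31, the highest of the 16 fits that left out a library, and 2 were called. Other omissions moved this count as much or more, with 4 calls without Cpt2KO replicate 1 or 4, 3 without Cpt1DKO replicate 3, 2 without TKO replicate 4 and 0 without any one of the Control libraries, the other Cpt1DKO libraries or TKO replicates 2 and 3. The call was Slco1a1, a carrier of bile acids and steroids, at 236 ± 27.6, 93.4 ± 24.7, 38.5 ± 22 and 67 ± 24.5 CPM in Control, Cpt1DKO, Cpt2KO and TKO (log2 2.14, SE 0.54, adjusted p = 0.0443). It was also the sole call among 18 genes of bile acid synthesis and transport (median 0.54), where 4 were called without Cpt2KO replicate 1 and 3 higher without Cpt2KO replicate 4. Slco1a1 lost its call without the female-pattern library (0.068), in 10 of the 16 fits in all, with all 20 libraries (0.203) and with no filter on low counts (0.093). Mup13, a major urinary protein, had the largest positive estimate among the named genes (log2 8.98, SE 2.11, adjusted p = 0.0375), but its libraries spread from 21.2 to 952 CPM in Control and from 5.82 to 354 in TKO. Its call was lost in 11 of 16 fits that left out a library, with limma-voom (0.129), with all 20 libraries (0.0533) and with no filter on low counts (0.054).

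Secreted proteins of hepatocytes had 3 members called higher and 1 lower of 26, with a median of 0.40 (1 higher without Cpt1DKO replicate 1). Serpina1c, a protease inhibitor, averaged 988 ± 117, 416 ± 38, 332 ± 90.6 and 416 ± 93.4 CPM in Control, Cpt1DKO, Cpt2KO and TKO (log2 1.57, SE 0.27, adjusted p = 0.00303). Its lowest Cpt2KO value, 200 CPM, was in the female-pattern library, and without that library the estimate was 1.39. Trf, the iron carrier transferrin, averaged 12140 ± 957, 7499 ± 979, 3934 ± 194 and 4677 ± 906 CPM (log2 0.94, SE 0.21, adjusted p = 0.0185). The gene called lower was Apoa1, the main protein of HDL, at 8391 ± 654, 11390 ± 813, 9762 ± 2770 and 7081 ± 660.3 CPM (log2 -0.9, SE 0.24, adjusted p = 0.0416), where TKO was the lowest group. Apoa1 lost its call in 13 and Trf in 1 (without Cpt1DKO replicate 1) of the 16 fits that left out a library, and Apoa1 also with all 20 libraries (0.052).

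Acute phase proteins had 24 of 25 members above 0 and a median of 0.72. Of them 4 were called higher (16%, against 1.94% of all genes) and none lower (1 without Control replicate 3). Saa4, an apolipoprotein made constantly by the liver, read 175, 191, 285 and 191 CPM in Control, 40.7, 30.2, 79 and 79.8 in Cpt1DKO, 15.2, 4.58, 6.55 and 5.66 in Cpt2KO, and 7.15, 23.2, 14.6 and 19.3 in TKO. The groups fell in the order Control, Cpt1DKO, TKO and Cpt2KO, with overlap only between TKO and Cpt2KO (log2 2.89, SE 0.62, adjusted p = 0.0242). Steap4, a metalloreductase, averaged 69.4 ± 12.8, 38.4 ± 4.81, 22.9 ± 4.37 and 26.9 ± 6.38 CPM in Control, Cpt1DKO, Cpt2KO and TKO (log2 1.08, SE 0.24, adjusted p = 0.0192). Saa3 averaged 7.65 ± 2.43, 2.28 ± 0.312, 1.49 ± 0.99 and 1.65 ± 0.327 CPM (log2 1.92, SE 0.51, adjusted p = 0.0416) and lost its call in 12 of 16 fits that left out a library, with all 20 libraries (0.203) and with scaling by library totals (0.0508). Saa4 lost it when Control replicate 3 or Cpt1DKO replicate 1 was omitted.

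Orm3, an orosomucoid, had another order of levels than the other acute phase genes called. It read 3.55, 5.37, 3.41 and 5.95 CPM in Control, 4.8, 7.03, 2.34 and 5.03 in Cpt1DKO, 2.51, 5.7, 2.91 and 5.66 in Cpt2KO, and 13.8, 32.3, 12.4 and 13.2 in TKO. Every TKO library lay above every other library, and the other groups overlapped (log2 2.01, SE 0.54, adjusted p = 0.0486). Its call was lost in 14 of 16 fits that left out a library, with all 20 libraries (0.266), limma-voom (0.0701) and no filter on low counts (0.138). With Orm1 and Orm2 it forms a family of similar genes.

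The summed level of the 12 hepatocyte markers ran from 97120 to 119700 CPM in Control, 98560 to 110200 in Cpt1DKO, 56480 to 87770 in Cpt2KO and 50690 to 86270 in TKO. It was lower than Control in both groups without Cpt2, as were the summed levels of the P450, secreted protein and acute phase lists, and its part in those results was not tested. In whole liver, fewer cells of a type and less RNA per cell cannot be told apart. Within this list Serpina1a was called higher (log2 0.88, SE 0.21, adjusted p = 0.0242) and Apoa1 lower, and the median was 0.06, with -0.002 without Cpt2KO replicate 4. Serpina1a lost its call without Cpt1DKO replicate 1 and with all 20 libraries (0.0538), and it shares sequence with the other Serpina1 genes.

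The calls among genes of nitrogen and amino acid metabolism were all higher. In amino acid breakdown 3 of 32 were called (9.38%, against 1.94% called higher over all genes). The median was 0.41, and 2 were called without Control replicate 2 and 6 without TKO replicate 1. Haao, an enzyme of tryptophan breakdown, averaged 319.8 ± 21.6, 159 ± 46.2, 38 ± 12.4 and 59.9 ± 14.2 CPM in Control, Cpt1DKO, Cpt2KO and TKO (log2 1.66, SE 0.32, adjusted p = 0.0094). Gnmt, which disposes of excess methyl groups, averaged 1996 ± 110.1, 1079 ± 169.7, 463 ± 19.4 and 636 ± 252 CPM (log2 1.34, SE 0.28, adjusted p = 0.0117, 0.0579 with all 20 libraries), and Prodh, the first enzyme of proline breakdown, 319 ± 29.7, 175 ± 51.6, 101 ± 21.8 and 127 ± 32.1 CPM (log2 1.2, SE 0.28, adjusted p = 0.0247). Prodh lost its call in 5 of 16 fits that left out a library. Of 15 urea cycle genes 1 was called (6.67%), with a median of 0.20. This was Otc (ENSMUSG00000031173, chromosome X, 10118544 to 10187263, plus strand), which makes citrulline, and it read 356, 373, 335 and 354 CPM in Control, 131, 80.3, 185 and 194 in Cpt1DKO, 79.7, 36.5, 70.4 and 79 in Cpt2KO, and 84.8, 134, 115 and 78.2 in TKO (log2 1.9, SE 0.38, adjusted p = 0.0143). Control was highest, and TKO overlapped both Cpt1DKO and, at 1 library, Cpt2KO.

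Stress and signalling lists held scattered calls. Of 26 genes of ATF4 and the integrated stress response 3 were called lower and none higher, with a median of -0.50 (0 without Cpt1DKO replicate 1, 5 without Cpt1DKO replicate 3). Besides Fgf21 these were Atf5, a stress transcription factor, at 392 ± 43.4, 674 ± 94.5, 688 ± 150.1 and 560.5 ± 117 CPM in Control, Cpt1DKO, Cpt2KO and TKO (log2 -1.08, SE 0.24, adjusted p = 0.02), and Slc3a2, the heavy chain of amino acid carriers, at 34.7 ± 2.61, 51.6 ± 6.13, 132 ± 13.8 and 108 ± 28 CPM (log2 -0.85, SE 0.21, adjusted p = 0.0297). Slc3a2 lost its call in 10 of 16 fits that left out a library and with all 20 libraries (0.215), and Atf5 without Cpt1DKO replicate 1. Chaperones and the unfolded protein response had 20 of 21 members above 0, a median of 0.46 and 1 call, Edem1, which sends misfolded glycoproteins to degradation, at 161 ± 10.2, 93.9 ± 5.8, 65.6 ± 9.42 and 77.7 ± 6.01 CPM (log2 1.02, SE 0.16, adjusted p = 0.00141). NRF2 targets had 2 calls higher of 26 and a median of 0.18 (1 without Cpt1DKO replicate 1, 3 without Cpt2KO replicate 1). These were the glutathione transferases Gsta4, at 24.7 ± 5.7, 10.3 ± 1.9, 7.18 ± 0.701 and 12.2 ± 2.77 CPM (log2 2.04, SE 0.26, adjusted p = 4.4e-04), and Gstm1, at 750.1 ± 54.2, 549 ± 76.8, 457 ± 110.2 and 680.5 ± 137 CPM (log2 1.03, SE 0.24, adjusted p = 0.023), members of families that share sequence.

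Immediate early genes and MAP kinase phosphatases had 2 calls lower and 1 higher of 18, with a median of -0.95 (4 lower without Cpt1DKO replicate 3, and a median of -0.54 without Cpt1DKO replicate 2). Dusp8, a phosphatase of stress kinases, read 1.04, 1.66, 0.918 and 0.834 CPM in Control, 23.4, 26, 3.32 and 8.51 in Cpt1DKO, 21, 31.3, 28.9 and 11 in Cpt2KO, and 28.3, 18.2, 14.7 and 15.8 in TKO. All mutant libraries lay above Control and overlapped one another (log2 -4.05, SE 0.80, adjusted p = 0.016, 0.0816 with limma-voom). Jund, a subunit of AP-1, averaged 27.6 ± 3.83, 45.5 ± 8.08, 67.7 ± 15.9 and 51.8 ± 6.49 CPM in Control, Cpt1DKO, Cpt2KO and TKO (log2 -1.11, SE 0.23, adjusted p = 0.0118). Dusp6, the phosphatase of ERK, went the other way and read 55, 64.8, 45.4 and 65.1 CPM in Control, 18.7, 30.9, 19.9 and 25.1 in Cpt1DKO, 42.9, 31.8, 28.1 and 26.4 in Cpt2KO, and 47.2, 41, 47 and 34.5 in TKO (log2 1.68, SE 0.25, adjusted p = 0.00132). Cpt1DKO had the lowest mean, and TKO lay above Cpt1DKO without overlap and overlapped Cpt2KO and Control.

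Interferon-stimulated and antigen presentation genes had 22 of 25 members above 0, a median of 0.67 and 2 calls higher (1 without Control replicate 1). B2m, the light chain of class I molecules, averaged 1381 ± 78.8, 937 ± 103, 655 ± 14 and 749 ± 80.1 CPM in Control, Cpt1DKO, Cpt2KO and TKO (log2 0.75, SE 0.17, adjusted p = 0.0169). Mx1, an antiviral GTPase, averaged 3.03 ± 0.92, 0.843 ± 0.125, 0.587 ± 0.297 and 0.623 ± 0.261 CPM (log2 1.98, SE 0.54, adjusted p = 0.0461) and lost its call in 12 of 16 fits that left out a library, with limma-voom (0.0641), scaling by library totals (0.0543) and no filter on low counts (0.0575). Cytosolic ribosomal proteins had all 30 members below 0, a median of -0.54 and 2 calls lower, Rplp2 (log2 -0.85, SE 0.21, adjusted p = 0.0297) and Rpl13 (log2 -0.81, SE 0.20, adjusted p = 0.0335). Without Cpt2KO replicate 1 there were 14 such calls, and without Control replicate 1 none. Rplp2 lost its call in 7 and Rpl13 in 9 of the fits that left out a library, and Rpl13 with all 20 libraries (0.0533). Lysosome and autophagy genes had 2 calls lower of 31, with a median of -0.23 (0 without TKO replicate 3, 5 without Cpt2KO replicate 1). They were Map1lc3a, a marker of autophagosomes, at 56.1 ± 1.79, 66 ± 7.08, 79.8 ± 9.62 and 61.2 ± 2.39 CPM (log2 -0.62, SE 0.15, adjusted p = 0.0252), and Hexa, a lysosomal hexosaminidase, at 41.7 ± 3.31, 55.3 ± 4.28, 74.7 ± 14.9 and 61.1 ± 4.16 CPM (log2 -0.7, SE 0.18, adjusted p = 0.0328). Map1lc3a lost its call without Control replicate 3 or TKO replicate 3 and with all 20 libraries (0.0579), and Hexa in 9 of 16 fits that left out a library.

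The remaining pathway lists held 2 calls or none. In the citric acid cycle and pyruvate entry 2 of 27 were called lower (7.41%, against 2.05% of all genes), with a median of -0.28 (1 without Control replicate 1, 3 without Cpt2KO replicate 1). These were Pdk4 and the pyruvate carrier subunit Mpc1 (log2 -0.81, SE 0.22, adjusted p = 0.0421). Mpc1 lost its call in 13 of 16 fits that left out a library and with all 20 libraries (0.0644). By edgeR's quasi-likelihood test no member was called among 33 nuclear-encoded genes of oxidative phosphorylation (median -0.11), 13 mitochondrial DNA transcripts (0.49), 16 genes of gluconeogenesis (0.04), 18 clock genes (0.46), 19 cell cycle genes (-0.18) and 15 p53 targets (-0.25). In that order 2, 5, 4, 5, 0 and 2 of them had an unadjusted p under 0.05, DESeq2 called 1, 1, 2, 1, 0 and 2, and limma-voom called 0 in each. Leaving out a library gave at most 2 calls in any of these lists by edgeR, the 2 being lower ones of gluconeogenesis without Cpt1DKO replicate 3.

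Among the 15 largest negative estimates were genes outside these lists. Adra2a (ENSMUSG00000033717, chromosome 19, 54032582 to 54037413, plus strand), a receptor for noradrenaline, read 0, 0.128, 0 and 0 CPM in Control, 5.5, 3.71, 0.982 and 2.14 in Cpt1DKO, 22.3, 10.4, 25.6 and 5.21 in Cpt2KO, and 1.28, 2.51, 2.13 and 3.35 in TKO. Its Control counts were 0, 2, 0 and 0, so the estimate (log2 -9.17, SE 1.14, adjusted p = 8.9e-04) depends on how the fit treats counts near 0. Among the mutant groups TKO lay within the range of Cpt1DKO, and Cpt2KO lay above TKO without overlap. Lepr (ENSMUSG00000057722, chromosome 4, 101574601 to 101672549, plus strand), the leptin receptor, read 10.7, 5.12, 7.8 and 5.67 CPM in Control, 133, 165, 55.9 and 22.4 in Cpt1DKO, 225, 223, 229 and 86.3 in Cpt2KO, and 17.6, 103, 65.5 and 85.1 in TKO. Control was lowest and the mutant groups overlapped, with libraries of one group up to several fold apart (log2 -5.17, SE 0.92, adjusted p = 0.0109).

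Cgref1 (ENSMUSG00000029161, chromosome 5, 31090487 to 31102935, minus strand), a secreted calcium-binding protein, read 1.67, 2.69, 1.77 and 1.33 CPM in Control, 24, 24.9, 16.7 and 25 in Cpt1DKO, 35.8, 54.6, 32.3 and 55.3 in Cpt2KO, and 43.1, 26.9, 42.3 and 47.5 in TKO. Control lay below Cpt1DKO and Cpt1DKO below TKO without overlap, and TKO overlapped Cpt2KO (log2 -3.76, SE 0.33, adjusted p = 1.2e-05). Tubb2a, a beta-tubulin, read 26, 33.6, 16.8 and 16.1 CPM in Control, 249, 257, 55.9 and 165 in Cpt1DKO, 387, 846, 563 and 784 in Cpt2KO, and 681, 323, 311 and 402 in TKO, in the same order of groups, with Cpt1DKO replicate 3 the lowest mutant library (log2 -3.56, SE 0.63, adjusted p = 0.00929). Its close copy Tubb2b averaged 0.115 ± 0.0834, 3.73 ± 3.72, 21.2 ± 11.7 and 11.7 ± 6.02 CPM in Control, Cpt1DKO, Cpt2KO and TKO (log2 -5.78, SE 1.41, adjusted p = 0.0404), on counts near 0 in Control, and lost its call in 10 of 16 fits that left out a library, with limma-voom (0.216) and with no filter on low counts (0.075).

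Elovl7, a fatty acid elongase, averaged 0.392 ± 0.295, 3.45 ± 3.45, 32.3 ± 5 and 21.9 ± 6.42 CPM in Control, Cpt1DKO, Cpt2KO and TKO (log2 -3.71, SE 0.82, adjusted p = 0.0252). Its Control counts were low, at 4, 2, 12 and 8. TKO stood below Cpt2KO and above Cpt1DKO in the mean, and the call was lost in 4 of 16 fits that left out a library and with all 20 libraries (0.0905). Lamb3, a laminin chain, averaged 12.1 ± 2.12, 39.6 ± 26.4, 148 ± 78.8 and 49.4 ± 9.18 CPM (log2 -3.29, SE 0.61, adjusted p = 0.012), and its Cpt2KO libraries lay above those of every other group. Lamb3 overlaps G0s2 and Hsd11b1 on the other strand, and reads of these genes cannot be told apart without the strand setting.

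Of the 15 largest positive estimates, those not yet described had their highest level in Control and their lowest mean in Cpt2KO. Spry4, an inhibitor of receptor tyrosine kinase signalling, read 19.4, 16.8, 10.8 and 13.8 CPM in Control, 2.05, 3.2, 4.08 and 5.14 in Cpt1DKO, 2.06, 1.53, 2.81 and 1.74 in Cpt2KO, and 1.63, 2.96, 3.24 and 3.52 in TKO (log2 2.55, SE 0.41, adjusted p = 0.00204). Enho, which encodes the peptide adropin, read 26.3, 29.3, 20.8 and 17.1 CPM in Control, 6.08, 3.45, 6.57 and 8.56 in Cpt1DKO, 1.29, 2.55, 3.38 and 2.47 in Cpt2KO, and 3.2, 4.76, 2.93 and 2.91 in TKO (log2 2.4, SE 0.40, adjusted p = 0.00284). In both genes every mutant library lay below every Control library, and TKO overlapped both Cpt1DKO and Cpt2KO.

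Leap2, a peptide that blocks the ghrelin receptor, averaged 21.1 ± 2.61, 8.55 ± 3.53, 1.89 ± 0.558 and 4.12 ± 1.44 CPM in Control, Cpt1DKO, Cpt2KO and TKO (log2 2.41, SE 0.44, adjusted p = 0.00695). Map2k6, a kinase upstream of p38, averaged 15.5 ± 4.53, 4.6 ± 1.56, 0.887 ± 0.581 and 1.89 ± 1.2 CPM (log2 2.83, SE 0.63, adjusted p = 0.0224). Ido2, an enzyme of tryptophan breakdown, averaged 86.4 ± 17.7, 34.5 ± 10.9, 5.05 ± 3.79 and 11.9 ± 3.87 CPM (log2 2.57, SE 0.58, adjusted p = 0.0271). These stood well above the product of the separate losses in TKO while staying far below Control. Gamt, which makes creatine, averaged 76.8 ± 11.1, 21.5 ± 14.1, 8.84 ± 1.05 and 13.1 ± 4.87 CPM (log2 2.4, SE 0.56, adjusted p = 0.0309), and Slc22a30, an organic anion carrier, 93.9 ± 11.5, 23.2 ± 14.1, 7.87 ± 5.78 and 14.8 ± 2.54 CPM (log2 2.95, SE 0.63, adjusted p = 0.0237). Ido2 and Gamt each lost their call in 6 of 16 fits that left out a library, and Map2k6 and Slc22a30 without Cpt1DKO replicate 1. With no filter on low counts Map2k6 (0.0624), Ido2 (0.056) and Gamt (0.0634) lost it.

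**Figure D4:**
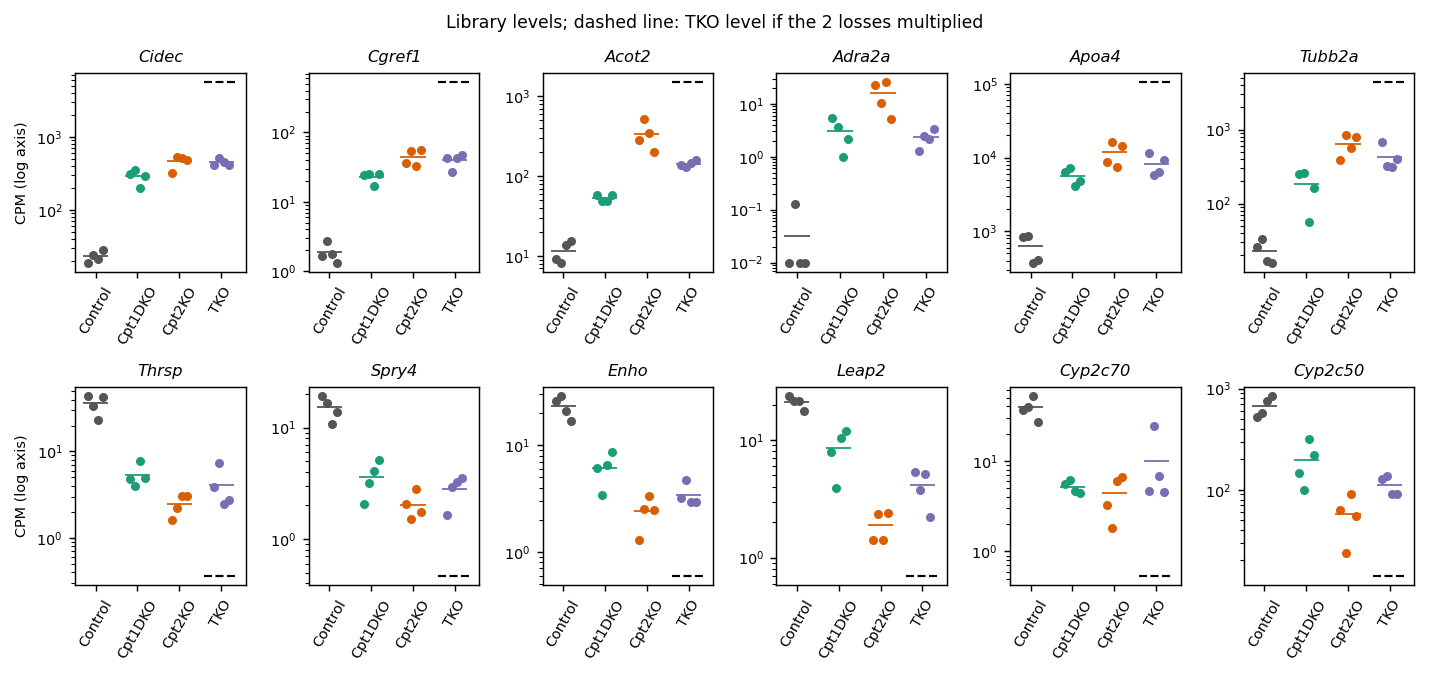
Level in each library (vertical axis, CPM, log axis; points) of 12 genes in Control, Cpt1DKO, Cpt2KO and TKO, with a coloured bar at the group mean and a dashed line at the TKO level if the separate losses had multiplied. Values of 0, in Control for Adra2a, are drawn at the foot of its axis, and Adra2a has no dashed line because of its low Control counts; in the other 11 genes all TKO libraries lie on the Control side of the dashed line.

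**Figure D5:**
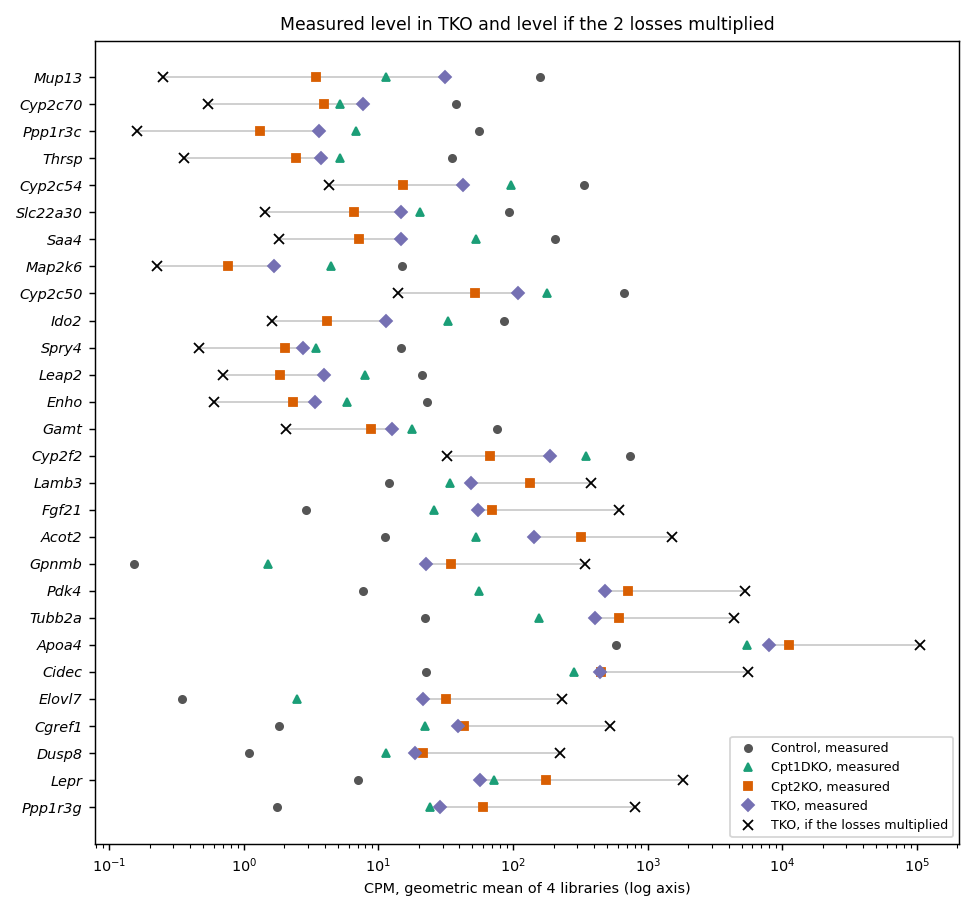
Geometric mean level (horizontal axis, CPM, log axis) of 28 of the 30 leading genes in each group (filled symbols) and the TKO level if the separate losses had multiplied (cross), joined to the measured TKO level by a grey line; the 2 genes with few Control counts, Adra2a and Tubb2b, are left out. For Cidec the cross is at 5616 CPM and the measured TKO level at 445 CPM, and for Thrsp at 0.362 and 3.76 CPM.

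A few genes did not follow the common order, and the 4 that follow were chosen after their values were seen. Ide (ENSMUSG00000056999, chromosome 19, 37246142 to 37340010, minus strand), the insulin-degrading enzyme, read 95.3, 110, 106 and 107 CPM in Control, 124, 115, 103 and 121 in Cpt1DKO, 257, 236, 212 and 289.6 in Cpt2KO, and 140.5, 113, 103 and 135 in TKO. Only the Cpt2KO libraries were high, and TKO overlapped Control and Cpt1DKO (log2 -1.16, SE 0.17, adjusted p = 0.00127). TKO was lower than Cpt2KO by log2 -1.02 (SE 0.12, adjusted p = 7.2e-04). Hivep2 (ENSMUSG00000015501, chromosome 10, 13841819 to 14027118, plus strand), a zinc finger transcription factor, was the reverse, and read 14.6, 13.6, 15.8 and 13.1 CPM in Control, 12.7, 16.6, 11.1 and 13.1 in Cpt1DKO, 8.11, 5.45, 9.2 and 8.12 in Cpt2KO, and 11.9, 18.3, 16.3 and 16.5 in TKO. The Cpt2KO libraries lay below all others, and TKO overlapped Control and Cpt1DKO (log2 1.12, SE 0.24, adjusted p = 0.016).

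Tsku (ENSMUSG00000049580, chromosome 7, 97999875 to 98010535, minus strand), a secreted protein of the liver, read 122, 142, 206 and 163 CPM in Control, 50.2, 84.2, 76.9 and 78 in Cpt1DKO, 143, 98.3, 94.3 and 104 in Cpt2KO, and 181, 234, 233 and 245 in TKO. Cpt1DKO was lowest, and TKO lay above both Cpt1DKO and Cpt2KO without overlap and overlapped Control (log2 2.15, SE 0.26, adjusted p = 1.9e-04). TKO was higher than Cpt2KO by log2 1.02 (adjusted p = 0.0398) and higher than Cpt1DKO by 1.62 (adjusted p = 5.5e-05). Igfbp2 (ENSMUSG00000039323, chromosome 1, 72863662 to 72891633, plus strand), a binding protein of insulin-like growth factors, read 924, 983, 732 and 869.6 CPM in Control, 1383, 1150, 1358 and 1334 in Cpt1DKO, 1566, 1555, 1186 and 937 in Cpt2KO, and 703, 908, 998 and 726 in TKO. Cpt1DKO lay above Control and TKO without overlap, Cpt2KO was higher than both in the mean but overlapped Control and TKO at replicate 4, and TKO overlapped Control (log2 -1.23, SE 0.23, adjusted p = 0.00794).

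Most markers of other liver cells were not called in the interaction. By edgeR none of 16 markers of macrophages and Kupffer cells was called, 1 had an unadjusted p under 0.05, and DESeq2 and limma-voom called 0 (median -0.18), and their summed level was 330 to 646 CPM in Control, 342 to 452 in Cpt1DKO, 289 to 737 in Cpt2KO and 223 to 436 in TKO. Of 12 markers of lipid-associated macrophages 1 was called (8.33%, against 3.98% of all genes), and the median was 0.19. Without Cpt1DKO replicate 3 there were 3 calls lower and 1 higher. Without Cpt1DKO replicate 4 or Cpt2KO replicate 3 there were 2 lower. With all libraries the call was Gpnmb, a lysosomal glycoprotein that is also among the largest negative estimates, and it read 0.365, 0.512, 0.0656 and 0 CPM in Control, 2.11, 2.2, 0.755 and 1.39 in Cpt1DKO, 54.4, 37.1, 26.4 and 27.6 in Cpt2KO, and 26.5, 20.5, 19.7 and 23.7 in TKO. TKO and Cpt2KO were high and Cpt1DKO was low but above Control (log2 -3.44, SE 0.64, adjusted p = 0.00929). The Control counts of Gpnmb were 7, 8, 1 and 0, so the size of its estimate rests on a level near 0. The summed level of that list was 63.2 to 84.8 CPM in Control, 62.3 to 73.5 in Cpt1DKO, 131 to 184 in Cpt2KO and 109 to 134 in TKO, and its part in the Gpnmb result was not tested. That sum includes Gpnmb itself, which averaged 0.236 CPM in Control, 36.4 in Cpt2KO and 22.6 in TKO, so it is not a separate measure.

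Of 16 endothelial markers edgeR, DESeq2 and limma-voom called 0, with 3 at an unadjusted p under 0.05, although all 16 estimates lay below 0 (median -0.52). Without Control replicate 1, 3 were called lower and the median was -0.82. Their summed level was 956 CPM in Control replicate 1 and 457 to 512 in the other Control libraries, which lay below all mutant libraries. It was 740 to 962 CPM in Cpt1DKO, 602 to 753 in Cpt2KO and 514 to 810 in TKO, and its part in the estimates was not tested. Of 22 markers of stellate cells and matrix 2 were called lower, 9.09% against 2.05% of all genes (median -0.48, 0 without Control replicate 4). They were Ecm1, at 105 ± 12, 138 ± 11.4, 152 ± 27.8 and 115 ± 11.7 CPM in Control, Cpt1DKO, Cpt2KO and TKO (log2 -0.79, SE 0.18, adjusted p = 0.0224), and Dcn, which encodes decorin, at 117 ± 10.6, 165 ± 20.5, 177 ± 28.9 and 146 ± 14 CPM (log2 -0.77, SE 0.18, adjusted p = 0.0258). Ecm1 lost its call in 3 of 16 fits that left out a library (Control replicate 4, Cpt1DKO replicate 1 and TKO replicate 3) and Dcn in 7. The summed level of that list was 394 to 466 CPM in Control, below the 515 to 735 CPM of the mutant libraries, and its part in these calls was not tested. That sum includes Ecm1 and Dcn themselves, at 128 and 152 CPM on average over the 16 libraries, so it is not a separate measure. By edgeR no member was called among 12 cholangiocyte, 9 lymphocyte, 3 neutrophil, 7 erythroid and 2 pancreas and adipose transcripts tested. In that order 2, 0, 0, 2 and 1 had an unadjusted p under 0.05, DESeq2 called 1 of the last and 0 of the others, and limma-voom called 0. Prss1, Cpb1 and Amy2b of the exocrine pancreas, Ins1 of the islets and Lep of fat had 0 counts in all 16 libraries.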

How the data were processed

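Per the labels' protocols, total RNA from frozen liver was purified with TRIzol and RNeasy columns and sequenced by a service provider. The authors deposited a table of raw whole-number read counts for 56748 genes, not normalized. HISAT2 and the build GRCm39 are named per the submitters' processing notes, with the aligner version, counting tool, strand setting and annotation not given in the sources used here. Library titles identified the count columns, with 0 columns unmapped and 0 rows without a gene name. The deposited FPKM values and the authors' comparison tables were not used here.

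The filterByExpr function of edgeR (minimum count 10) kept 15061 of the 30173 genes with a count above 0, and TMM factors scaled the libraries. The quasi-likelihood model had 1 coefficient per group and the 16 libraries of the layout (R 4.3.3, edgeR 4.0.16). Dispersions were robust, with a biological coefficient of variation of 0.218, and tests were two-sided. Standard errors are the absolute log2 estimate divided by the square root of F. The level of TKO under multiplied losses came from group means of log2 CPM (prior count 0.5), and was left out where a group had under 10 counts. On simulated counts for the interaction (14805 genes fitted) the test found 36% of 100 genes changed by 1 and 89% of 100 changed by 2 on the log2 scale, with 3 unchanged genes called.

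Named genes were the 15 largest estimates in each direction among called genes that code for protein, average 5 CPM or more and have no predicted-gene name, the targeted genes, Fgf21, Pdk4, Cyp4a14, Acot1 and Plin2, and up to 4 members per list with the smallest p, of which the called ones are described, except 1 that is not reported here. The layout, the 41 gene lists and the rule were chosen with earlier results of these data known, so list counts are descriptions. Alternatives were a fit with all 20 libraries, DESeq2 1.42.0, limma-voom (limma 3.58.1), RLE size factors, library totals alone, no filter on low counts, a replicate block and each library left out. A leave-out fit pools the spread of all 4 groups.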

Additional observations from a re-analysis of the deposited data

Results flagged for a closer look

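The effect of Cpt2 loss differed between livers with and without Cpt1 at 600 genes by the test of the difference itself, as described above. Of 364 sets of 4 libraries (91 genes described or named here, 4 groups each), 15 had a library far from the other 3 on the log2 scale, with a gap above Dixon's critical share of the range. Chance alone puts about 1 in 20 such sets past that value.

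Among genes with large estimates, Lepr stood at 86.3 CPM in Cpt2KO replicate 4, against 223 to 229 in the others of that group. Cgref1 stood at 16.7 CPM in Cpt1DKO replicate 3, against 24.0 to 25, and Tsku at 181 CPM in TKO replicate 1, against 233 to 245. Adra2a stood at 0.128 CPM in Control replicate 2 and at 0 in the other Control libraries. Orm3 stood at 32.3 CPM in TKO replicate 2, against 12.4 to 13.8.

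The targeted gene Cpt2 stood at 141 CPM in Cpt1DKO replicate 2, against 274 to 287 in the other Cpt1DKO libraries. Cpt2KO replicate 2 was apart at 4 genes, with Pecr at 30.2 CPM, Cyp4f14 at 12.8 and Otc at 36.5, each low, and Map1lc3a at 94.2, which was high. Serpina1c stood at 200 CPM in Cpt2KO replicate 3, the library with the female pattern, against 359 to 405. In Control replicate 3, Slc16a1 was low at 33.2 CPM and Saa3 high at 11.3. Nsdhl was low at 5.95 CPM in TKO replicate 3 and Mpc1 at 40.3 in Cpt1DKO replicate 1.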

How the results depend on the processing

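For 88 called named genes the sign held in every setting tried, also on linear CPM, and 53 kept their call in all 16 fits that left out a library. DESeq2 called 1148 genes in the interaction (589 higher, 559 lower), 718 higher for Cpt2 loss without Cpt1, 1688 (924 lower) for Cpt1 loss with Cpt2 present and 79 (44 higher, 35 lower) for Cpt1 loss without Cpt2. With all 20 libraries 201 genes were called lower in the interaction. Library totals gave 4179 higher and 1715 lower for Cpt2 loss with Cpt1 present, 1097 higher for Cpt2 loss without Cpt1 and 838 higher for Cpt1 loss with Cpt2 present. With no filter 25 genes (14 higher, 11 lower) were called for Cpt1 loss without Cpt2. The cause of these shifts was not tested.

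Leaving out a library gave 261 to 904 interaction calls (126 to 481 higher, 135 to 423 lower). It gave 4591 to 5354 for Cpt2 loss with Cpt1 present (2339 to 2757 higher, 2208 to 2597 lower) and 424 to 1206 without it (212 to 598 higher, 194 to 637 lower). For Cpt1 loss it gave 387 to 1496 with Cpt2 present (199 to 690 higher, 188 to 806 lower) and 4 to 15 without (1 to 10 higher, 3 to 10 lower).

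Some list medians near 0 changed sign. For cell cycle genes the median was 0.055 with limma-voom and ran from -0.279 to 0.006 with a library left out, above 0 without Cpt2KO replicate 1. Lipid-associated macrophage markers ran from -0.058 to 0.34, below 0 without Control replicate 1, TKO replicate 3 or TKO replicate 4. Macrophage and Kupffer cell markers ran from -0.335 to 0.188, above 0 without Cpt2KO replicate 3 or TKO replicate 1. With a library left out, medians also crossed 0 for gluconeogenesis (-0.26 to 0.252), omega oxidation (-0.145 to 0.15), cholangiocyte markers (-0.232 to 0.358) and hepatocyte markers (-0.002 to 0.272), and outside those fits for omega oxidation with limma-voom (0.22) and the replicate block (0.08), gluconeogenesis with library totals (-0.031) and cholangiocyte markers with the block (0.007).

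Over 24 pairs of libraries with the same number, deviations from the group means correlated between -0.157 and 0.139, with 2 pairs over 0.1. These values show no strong pairing by number. Pairs with different numbers were not compared, and a batch shared by libraries of the same number was not tested. A replicate block gave 491 interaction calls, 446 of them among the 600, and 4 higher for Cpt1 loss without Cpt2. Under it 12 named genes missed the threshold, Fgf21, Saa4, Ido2, Elovl7, Mttp, Rplp2, Rpl13, Ppp1r3g, Mup13, Slco1a1, Cyp2f2 and Mx1 (adjusted p 0.0512 to 0.162). In the simulation, 100 genes were changed by 1 and 100 by 2 on the log2 scale, and 36% of the former were found. That share depends on how many genes change, and the data had 600 calls, so it need not hold for them.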

Other observations

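Families outside the lists were gathered by symbol after the calls were seen, so their counts are descriptions. Of 38 tested proteasome subunits, the parts of the complex that degrades tagged proteins, 9 were called lower in the interaction and none higher. That is 23.7%, against 2.05% of all genes, with a family median of -0.50 and 34 below 0. Those called were Psmd8, Psmb4, Psmd4, Psmd3, Psmb5, Psmc4, Psmd9, Psmb3 and Psmb7. The family's median for Cpt2 loss was 0.37 with Cpt1 present and -0.11 without it. Of 77 mitochondrial ribosomal proteins 3 were called lower (3.9%, against 2.05% of all genes), Mrpl17, Mrpl54 and Mrps28, with a median of -0.17 and 63 below 0.

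Of 16 tubulins 3 were called lower (18.8%, against 2.05% of all genes), Tubb2a, Tubb4b and Tubb2b, and none higher, with 11 below 0 and 5 above. Of 12 Cyp2c genes 4 were called higher (33.3%, against 1.94% of all genes), Cyp2c50, Cyp2c54, Cyp2c23 and Cyp2c70, with a median of 0.97. The family was split, with 7 above 0 and 5 below. Of 20 major urinary proteins 1 was called higher (5%), Mup13, with 19 above 0 and a median of 2.07, in genes that share much of their sequence and are sex-biased.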
